A study of Mus musculus with 31 samples.

Results

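The subject of this report is the MC-38 tumor 12 h after radiation therapy (RT). The members are the 4 MC-38 libraries labelled RT 12 h, set against the 4 MC-38 Control libraries, which makes 8 of the 31 libraries of the series. MC-38, spelled MC38 in the labels, is a mouse colon cancer line that is labelled adenocarcinoma. The cells were injected under the skin of the right hind leg of young male C57BL/6J mice (C57BL/6 in the labels), labelled WT (wild type), and left to form a tumor. The RT 12 h tumors received a single local dose of 15 Gy and were collected 12 h later. The Control tumors were not irradiated and otherwise carried no treatment. The labels give the Control mice the time of the 3 h group, so an effect of RT at 12 h and an effect of the time of collection cannot be told apart. Each library is the mRNA of 1 mouse's tumor, host cells included, and MC-38 is a single line. The remaining MC-38 libraries, 4 at 3 h and 4 at 24 h after RT, and the RM-9 prostate tumors were used only to place the 12 h values.

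Ionizing radiation breaks both strands of DNA. The kinases ATM and ATR sense the breaks and stabilize the transcription factor p53, which turns on genes for cell cycle arrest, repair and cell death, while a checkpoint holds damaged cells before mitosis. DNA that reaches the cytosol can be bound by cGAS, which signals through STING, TBK1 and IRF3 to interferon beta, or by AIM2, which activates caspase 1. A subcutaneous tumor also holds macrophages, lymphocytes, vessels and stroma, and these cell types differ in how they survive radiation.

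Depth was even, with an estimated 21.9 to 24.7 M reads (M, 1000000 reads) per library in the 8 libraries. The values are TPM, the share of a library's transcripts on a total of 1000000, as the authors deposited them. Pearson's r between mice of a group, over genes, was 0.924 to 0.985 for Control and 0.974 to 0.984 for RT 12 h. Control mouse 1 stood apart: it lay at -80.6 on the first principal component, which held 39.2% of the variance, against -32.8 to 18.9 for the other Control mice and 12.1 to 44.4 for RT 12 h. Its 16 skeletal muscle markers summed to 22340 scaled TPM, against 27.24, 180.2 and 2670 in Control mice 2, 3 and 4 and 10.01 to 525.2 at 12 h. The label of the line could not be checked by colon epithelium markers. Of 13, only Cdh1, Vil1 and Lgals4 were expressed highly enough to be tested. All 13 together came to 2.04 to 3.57 scaled TPM per library in the 8 libraries. Vil1 rose by 0.70 at 12 h, from 0.229 to 0.506 TPM to 0.763 to 1.54 TPM, but not without Control mouse 1. For most gene lists that follow, counts are also given without Control mouse 1, and for some without Control mice 1 and 4, the 2 with the most muscle RNA.

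At 12 h most genes took a slightly larger share of the TPM total. On the log2 scale, the TPM of the median gene was 3.09, 3.56, 3.68 and 3.47 in Control mice 1 to 4. At 12 h it was 3.74, 3.87, 3.81 and 3.84, so every RT 12 h mouse lay above every Control mouse. The difference of the means was 0.36 (exact permutation test over the 8 mice, two-sided, p = 0.0286, the smallest that 4 against 4 can give). It was 0.25 without Control mouse 1. One short mitochondrial gene, mt-Nd4l, alone took 29.6%, 17.3%, 15.8% and 21.1% of all TPM in the Control mice and 13.8% to 16.4% at 12 h. With the mitochondrially encoded genes taken out of the total, the difference of the median gene was 0.24.

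The direction that most genes took depended on this shift. Of 15698 genes tested with limma, 4469 were higher at 12 h in TPM as deposited (28.5% of those tested) and 406 were lower (2.59%), at an adjusted p under 0.05. The median gene had a log2 fold change of 0.33, that is 1.25-fold. Each library was then divided by the median ratio of its genes to their geometric mean over the MC-38 libraries, which brings the median change to 0.01. On these scaled values 995 genes were higher (6.34%) and 1544 were lower (9.84%). The share of calls that were higher thus went from 91.7% to 39.2%. No gene was called in opposite directions by the 2 scalings, and 1395 were called in the same direction by both, 995 higher and 400 lower.

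**Figure D1:**
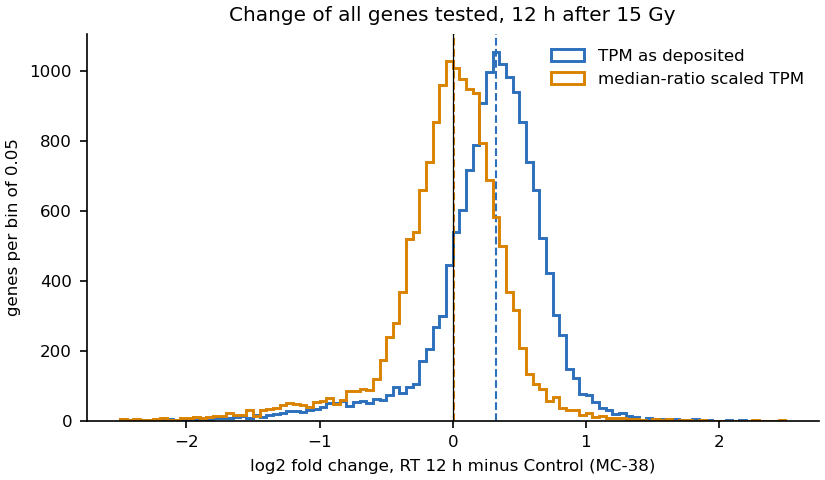
Number of genes (y axis, per bin of 0.05) at each log2 fold change between RT 12 h and Control in MC-38 tumors (x axis). The blue outline is TPM as deposited, with its median at 0.33 (dashed line); the orange outline is median-ratio scaled TPM, with its median at 0.01. Both have a longer left tail, which holds the macrophage genes among others. Changes beyond the plotted range are not shown, among them those of skeletal muscle markers, whose scaled list median was -3.64.

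The counts depended on single mice. Without Control mouse 1 the scaled fit called 352 genes higher and 686 lower, of which 338 and 677 were among the calls made with all mice; without RT 12 h mouse 4 it called 332 and 674. Without Control mice 1 and 4 it called 15 and 19, and the fit to TPM as deposited called 22 and 4. In that scaled fit no member of any gene list described here passed, other than Ung and 1 ribosomal protein gene. In what follows, "rose" and "fell" refer to an adjusted p under 0.05 on the scaled values unless the deposited scale is named, and log2 fold changes are of TPM plus 0.5, with their standard error.

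Macrophage transcripts were lower at 12 h. Of 17 macrophage markers, 13 fell and none rose, against 9.84% of all genes falling. In TPM as deposited 12 fell, against 2.59% of all genes. All 17 had a negative scaled change, and the median log2 fold change was -1.44, that is 0.368-fold. C1qb, a chain of the complement recognition molecule C1q that tissue macrophages make, measured 343, 336, 250 and 431 TPM in the Control mice. At 12 h it measured 127, 93.3, 190 and 71.9 TPM, so the groups did not overlap (scaled log2 fold change -1.91 ± 0.30, adjusted p = 0.00305). Csf1r, the receptor for the growth factor that macrophages need to survive, went from 25.5, 24.2, 18.4 and 30.7 TPM to 9.19, 9.22, 15.9 and 5.74 TPM (-1.66 ± 0.27, adjusted p = 0.00349). RT 12 h mouse 3 was the highest of the irradiated mice for both genes, and mouse 4 was the lowest.

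Genes of resident macrophages and of monocytes both fell. Scaled log2 fold changes were -1.38 for Adgre1, which encodes F4/80, -1.498 for Cx3cr1, the fractalkine receptor of resident macrophages, and -1.79 for Lyz2, the lysozyme of myeloid cells. Ccr2, the chemokine receptor that brings monocytes out of the marrow, fell by 1.23, and Ly6c2, a surface marker of inflammatory monocytes, by 1.46. Cd68, a lysosomal protein, fell less (-0.58 ± 0.18, adjusted p = 0.0399), and not in TPM as deposited (-0.24, adjusted p = 0.282). The markers Mrc1, Itgam, Cd14 and Mertk did not pass, with scaled log2 fold changes of -1.05, -0.78, -0.33 and -0.17. In bulk tumor RNA, fewer macrophages and less RNA per macrophage cannot be told apart.

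**Figure D2:**
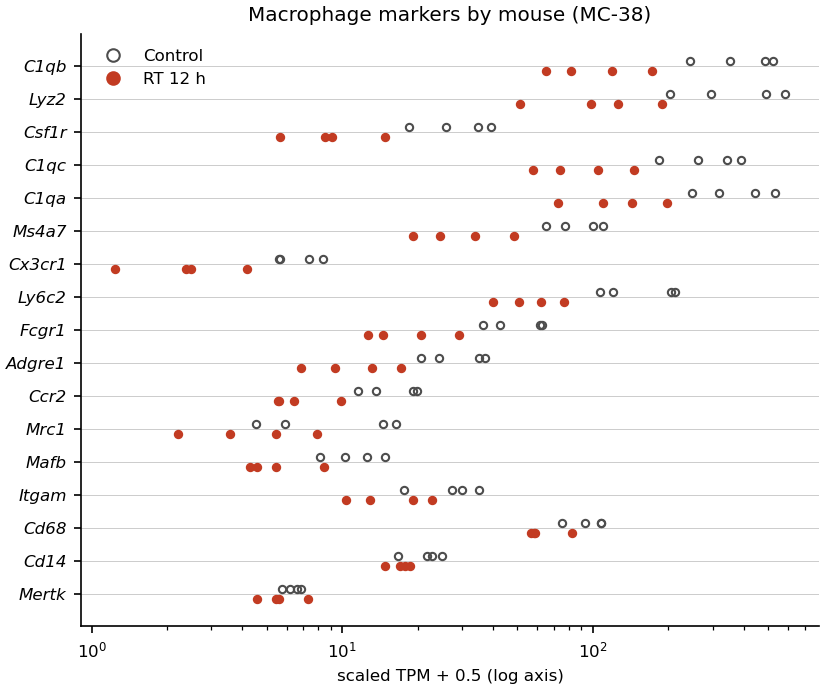
Scaled TPM plus 0.5 (x axis, log scale) of the 17 macrophage markers (y axis, ordered by fold change) in each mouse; open circles are Control mice and filled circles RT 12 h mice. For C1qb, Csf1r and Adgre1 the 4 irradiated mice lie below the 4 Control mice, while the groups overlap for Mrc1 and Mertk.

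Summed over the list, macrophage markers came to 2699, 1685, 1281 and 2422 scaled TPM in the Control mice and 715, 588, 1040 and 440 at 12 h. The 2 Control mice with the most muscle RNA, 1 and 4, also had the highest sums, but every RT 12 h sum lay below every Control sum. Without Control mouse 1, 11 of the 17 still fell. Without Control mice 1 and 4 none passed, while the median log2 fold change was -1.04. The part of muscle RNA in this difference was not tested.

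Several genes outside the marker list that belong to the same cells were among the 12 with the largest falls. Lair1, an inhibitory collagen receptor of leukocytes (chr7:4007073-4063204; gene coordinates are on GRCm38), measured 14.2, 16.7, 14.8 and 21.2 TPM in Control mice and 4.76, 3.73, 7.29 and 2.39 TPM at 12 h (scaled -2.17 ± 0.26, adjusted p = 0.00109). Clec12a, Clec4a3 and Clec5a, lectin receptors of myeloid cells, fell by 2.00, 1.87 and 1.80, and Ly86, the partner of a Toll-like receptor homolog, by 1.92. Apoe, the lipid carrier that macrophages secrete in quantity, went from 803, 422, 370 and 654 TPM to 181, 257, 311 and 72.0 TPM. Its log2 fold change of -1.92 lost its call without Control mouse 1 or without RT 12 h mouse 4 (-1.92 ± 0.47, adjusted p = 0.0157 with all mice, 0.0106 to 0.0572 leaving out 1 mouse). Fam26f, an interferon-induced membrane protein gene, fell by 1.94, and Ppfia4, which encodes a liprin, by 1.89.

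Hemoglobin transcripts, which mark red blood cells, were also lower. Hbb-bs, an adult beta globin, measured 71.5, 79.4, 29.3 and 29.3 TPM in the Control mice and 17.1, 14.6, 22.8 and 14.1 TPM at 12 h (scaled -1.80 ± 0.34, adjusted p = 0.00554). Control mice 1 and 2 were far above Control mice 3 and 4, and all 4 lay above every irradiated mouse. The 4 globin genes tested all fell on both scalings, with a scaled median log2 fold change of -1.498, and also without Control mouse 1. The globin genes come in near-identical pairs, so the split between Hbb-bs and Hbb-bt and between Hba-a1 and Hba-a2 is uncertain.

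Lymphocyte markers fell less steeply. Of 19 T and NK cell markers tested, 12 fell and none rose, against 9.84% and 6.34% of all genes. The median log2 fold change was -0.86. In TPM as deposited 7 fell, against 2.59% of all genes. Trbc2, a constant segment of the T cell receptor beta chain, measured 13.8, 13.6, 10.7 and 17.0 TPM in Control mice and 6.82, 5.13, 11.5 and 4.87 TPM at 12 h. On the scaled values the groups did not overlap (-1.31 ± 0.30, adjusted p = 0.0124). Cd3g and Cd3e, signalling chains of the same receptor, fell by 1.25 and 1.05, and the adhesion molecule Cd2 by 1.15. Gzmb, the cytotoxic granule protease granzyme B, did not pass (0.11 ± 0.22, adjusted p = 0.758). Only 4 of the 12 falls passed without Control mouse 1, and none without Control mice 1 and 4, where the median was -0.56.

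Markers of other host cells were called singly or in small numbers, and their counts read against the 9.84% of all genes that fell on the scaled values. In the dendritic cell list 2 of 7 fell: H2-Ab1, an MHC class II chain (-1.79), and the integrin Itgax (-1.08), of which Itgax also passed without Control mouse 1. Neutrophil markers, which bear on the infiltrate the study set out to follow, fell for 3 of 10, namely the decoy receptor Il1r2 (-1.01), the G-CSF receptor Csf3r (-0.92) and Trem1 (-0.74), and none of the 10 was called in TPM as deposited or without Control mouse 1. Of 4 B cell genes tested only Ighm, which encodes the IgM heavy chain, fell (-1.48), and the list median was -0.09. As deposited 2 of the 4 rose and 1 fell. Of 13 endothelial markers only Esam fell, and of 12 fibroblast markers Thy1 fell and Pdgfra rose; none of these 3 passed without Control mouse 1. No skeletal muscle marker passed (0 of 16 by limma, 1 at an unadjusted p under 0.05), although their median log2 fold change was -3.64; Control mice 1 and 4 held nearly all of the muscle signal of the Control group. Skin and fat markers gave no call in 6 (1 at an unadjusted p under 0.05).

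The genes that rose most did not form a cell type list. By the naming rule the 12 with the largest rises were Trav15n-1, Trav15d-1-dv6d-1, Acsm3, Gm21992, Esp8, Bbs2, Fam132a, Tmem40, Scn8a, Fn1, Myl7 and Rapgef4. The rule itself required every RT 12 h mouse to lie above every Control mouse on both scalings. Across all genes such separation was seen upward in 13.8% and downward in 14.1% on the scaled values. Acsm3, a mitochondrial acyl-CoA synthetase (chr7:119760923-119787513), measured 1.54, 0.870, 2.79 and 0.539 TPM in the Control mice. At 12 h it measured 7.51, 11.8, 14.5 and 13.5 TPM (scaled log2 fold change 2.48 ± 0.40, adjusted p = 0.00308). The gap between the groups was a condition for naming it.

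Fn1, fibronectin, a secreted protein of the extracellular matrix (chr1:71585520-71653200), was the most abundant of these genes. It measured 86.1, 167, 173 and 97.4 TPM in Control mice and 293, 499, 435 and 513 TPM at 12 h (1.42 ± 0.26, adjusted p = 0.00462). Bbs2, a subunit of the BBSome that sorts cargo to the primary cilium, measured 5.11, 22.6, 16.7 and 9.68 TPM in Control mice and 48.7, 33.4, 49.8 and 83.1 TPM at 12 h (1.73 ± 0.39, adjusted p = 0.0116). Fam132a, a secreted hormone-like protein also called adipolin, rose by 1.52, the membrane protein gene Tmem40 by 1.503 and Scn8a, a voltage-gated sodium channel, by 1.501. Myl7, a myosin light chain best known from the atrium of the heart, rose by 1.36 (32.8 to 74.3 TPM against 7.85 to 22.7 TPM in Control mice). None of these genes was at 0 in the Control tumors.

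The gene with the largest rise carries a caution. Trav15n-1, a T cell receptor alpha variable segment (chr14:53174325-53174896), measured 1.11, 5.35, 4.10 and 1.29 TPM in Control mice and 13.99, 12.2, 39.7 and 44.2 TPM at 12 h (2.72 ± 0.58, adjusted p = 0.00943). Its copy Trav15d-1-dv6d-1 kept a fixed ratio to it, with Trav15n-1 at 1.183 to 1.188 times its level in all 8 libraries, so reads shared between the copies were split and the pair counts as a single signal. The direction was opposite to that of the T cell markers Trbc2, Cd3g and Cd3e. Gm21992 overlaps Rbm14 and Rbm4 on the same strand, and its value of 2.26 is uncertain for that reason. Among the falls, AC099934.2 lies within Rn7s1 and was at 0 TPM in 3 of 4 irradiated mice and 15.8 TPM in the other, and Trbj2-7 is a short T cell receptor joining segment. Acsm3 and Cdc20 overlap Eri2 and Elovl1 on the opposite strand, and whether reads were counted by strand is not given in the sources used here.

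**Figure D3:**
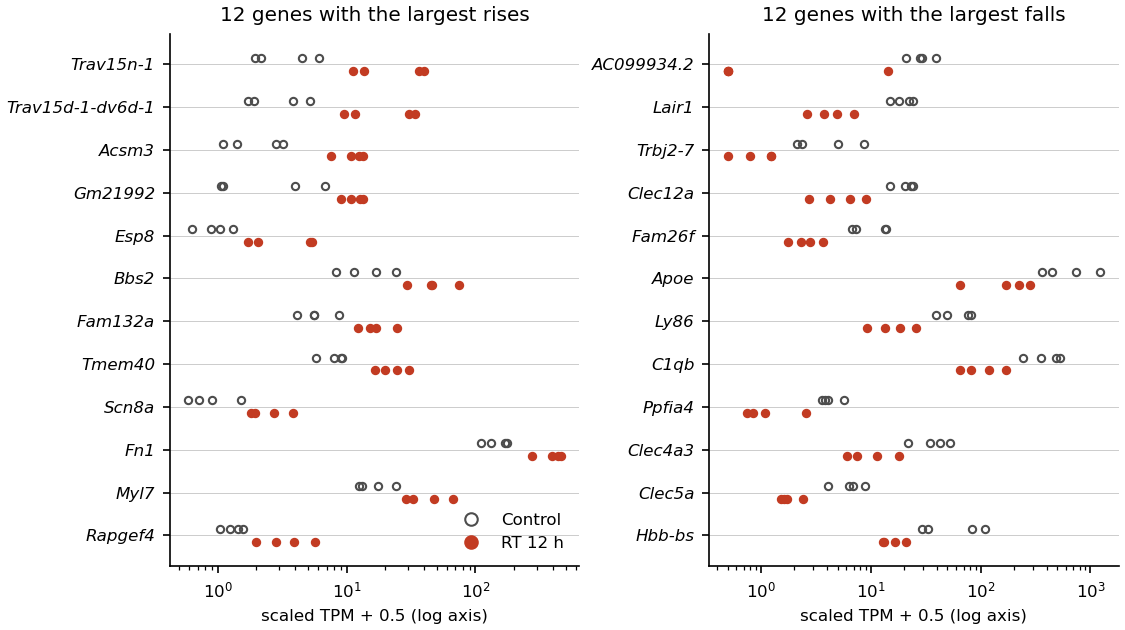
Scaled TPM plus 0.5 (x axis, log scale) in each mouse for the 12 genes with the largest rises (left) and the 12 with the largest falls (right); open circles are Control mice and filled circles RT 12 h mice. The groups do not overlap in either panel, as the rule for choosing the genes required.

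Of these 24 genes, 17 passed on the scaled values without each of the 8 mice in turn. The other 7 lost their call at least once: Gm21992, Esp8, Scn8a, Myl7, Rapgef4, AC099934.2 and Apoe, each without Control mouse 1. Their highest adjusted p values were 0.0831, 0.0813, 0.0545, 0.0587, 0.0557, 0.0996 and 0.0572. Of the 17, only Tmem40, Lair1 and Clec5a also passed in every other alternative fit. These fits included the one without the Control mice with the most muscle RNA. The rest of the 17 each lost their call in 1 alternative fit. There the adjusted p was 0.0651 for Acsm3, 0.0852 for C1qb, 0.109 for Fn1, 0.169 for Trav15n-1 and 0.216 for Trbj2-7.

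On the scaled values a larger share of p53 targets than of all genes rose at 12 h, though 25 of 31 were not called. Of 31 p53 targets tested, 5 rose and 1 fell, against 6.34% and 9.84% of all genes, with a median log2 fold change of 0.07. In TPM as deposited 15 rose and none fell, against 28.5% and 2.59% of all genes. Mdm2, the ubiquitin ligase that p53 induces and that degrades p53 (chr10:117688888-117710758), measured 12.2, 18.4, 18.4 and 13.6 TPM in Control mice and 25.9, 32.6, 35.8 and 28.2 TPM at 12 h. It rose by a scaled log2 fold change of 0.62 ± 0.10 (adjusted p = 0.00305). The cell death factor Trp53inp1 rose by 0.73, the translesion polymerase Polk by 0.57, the ribonucleotide reductase subunit Rrm2b by 0.35 and the RNA-binding protein Zmat3 by 0.33. Bax, the death effector at the mitochondrion, fell by 0.29 on the scaled values but was at 0.06 in TPM as deposited. Cdkn1a, which encodes the cell cycle inhibitor p21, measured 52.8, 65.3, 62.4 and 52.4 TPM in Control mice and 79.4, 74.98, 82.8 and 73.8 TPM at 12 h. It rose in TPM as deposited (0.42 ± 0.12, adjusted p = 0.0216) and not on the scaled values (0.07 ± 0.14, adjusted p = 0.753). Trp53 itself was likewise called only as deposited (0.44, adjusted p = 0.0271, and 0.09, adjusted p = 0.413, scaled). Without Control mouse 1, 4 targets rose and none fell, against 352 and 686 of all 15698 genes.

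DNA damage signalling and repair genes leaned upward. Of 41 tested, 11 rose and 1 fell, against 6.34% and 9.84% of all genes. The median log2 fold change was 0.26, against 0.01 for all genes. In TPM as deposited 28 rose and 1 fell, against 28.5% and 2.59% of all genes. Fancd2, the Fanconi anemia protein that marks stalled forks, measured 6.67, 12.9, 14.5 and 10.5 TPM in Control mice and 18.8, 20.4, 20.5 and 21.9 TPM at 12 h (0.56 ± 0.13, adjusted p = 0.0123). Genes for recombination and break sensing rose by similar amounts, among them Palb2 (0.60), the helicase Blm (0.51), Trp53bp1 (0.47), Mdc1 (0.45) and Brca2 (0.44). Parp1, which senses strand breaks, rose by 0.23. Only 3 of the 11 passed without Control mouse 1, where the median was 0.21.

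Ung went the other way. It encodes uracil-DNA glycosylase, which starts base excision repair of uracil (chr5:114130386-114139323). Ung measured 10.8, 18.8, 21.3 and 17.1 TPM in Control mice and 8.58, 9.36, 10.9 and 9.12 TPM at 12 h, with a scaled log2 fold change of -1.11 ± 0.14 (adjusted p = 0.00109). It was the 1 member of its list that fell with all mice, without Control mouse 1, and without Control mice 1 and 4. Ung was also 0.91 lower at 12 h than at 3 h (adjusted p = 0.024) and 0.85 higher again at 24 h than at 12 h (adjusted p = 0.0026). The call against 3 h was lost in 8 of 17 alternative fits (adjusted p 0.000299 to 0.15).

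Mitotic genes at 12 h leaned slightly above the Control level. Of 38 G2/M and mitosis genes, 4 rose and none fell, against 6.34% and 9.84% of all genes. The 4 were the phosphatase Cdc25b, which opens entry into mitosis (0.66 ± 0.13, adjusted p = 0.00699), the protease separase Espl1 (0.50), the kinase Aurkb (0.47) and the topoisomerase Top2a (0.43). The list median was 0.21, and 32 of the 38 changes were positive. For 16 of the 38 every RT 12 h mouse lay above every Control mouse, against 13.8% of all genes. By mouse, the median level of the list minus the Control mean was 0.044 to 0.287 at 12 h and -0.041 to 0.02 in Control. Without Control mouse 1, 3 rose and the median was 0.20. In TPM as deposited 19 rose, against 28.5% of all genes.

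Part of the same list differed between 12 h and 3 h. Against Control, 7 of the 38 genes were lower at 3 h and none was higher, with a median log2 fold change of -0.51. In a direct test of RT 12 h against RT 3 h on the scaled values, 79 genes were higher at 12 h (0.503% of those tested) and 25 were lower (0.159%). Of the 38 G2/M and mitosis genes 22 were higher, none was lower and 16 did not pass, with a median log2 difference of 0.78. Plk1, the kinase that drives mitotic entry, measured 17.7, 30.8, 18.9 and 69.9 TPM at 3 h and 74.3, 96.5, 93.7 and 77.9 TPM at 12 h (difference 1.395, adjusted p = 0.039). RT 3 h mouse 4 stood apart from the other 3 h mice: its list median lay 0.02 above the Control mean, against -0.72, -0.43 and -0.83 in 3 h mice 1 to 3. By the naming rule the largest differences after Plk1 were those of Cdc20, the activator of the anaphase-promoting complex (1.32), Prr11 (1.30), the kinase Aurka (1.29) and, in the list, the cyclin Ccnb1 (1.19). The contrast rested on single mice: leaving out 1 mouse gave 0 to 30 of the 38, no gene at all passed without RT 3 h mouse 1 or 2 or without RT 12 h mouse 2, 3 or 4, and in TPM as deposited none passed either (0 higher and 0 lower by limma, 1583 at an unadjusted p under 0.05).

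The promoters of these genes carry 2 elements known from cell cycle genes, shown here because the 4 genes with the largest differences by the naming rule were all higher at 12 h than at 3 h. TTTGAA is the core of the cell cycle homology region that the DREAM complex reads, and CCAAT is bound by NF-Y. The sequences are RefSeq's on GRCm38.p6, read 5′ to 3′ on the gene's strand, and each is the 150 bases before the start of transcription. Capitals mark TTTGAA or CCAAT on either strand. The regions are chr7:122159285-122159434 (plus strand, Plk1), chr4:118437344-118437493 (minus, Cdc20), chr11:87108715-87108864 (minus, Prr11) and chr2:172370571-172370720 (minus, Aurka).
Plk1: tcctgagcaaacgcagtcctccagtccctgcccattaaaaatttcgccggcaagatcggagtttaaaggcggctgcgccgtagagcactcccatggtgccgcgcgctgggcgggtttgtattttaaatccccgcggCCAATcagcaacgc
Cdc20: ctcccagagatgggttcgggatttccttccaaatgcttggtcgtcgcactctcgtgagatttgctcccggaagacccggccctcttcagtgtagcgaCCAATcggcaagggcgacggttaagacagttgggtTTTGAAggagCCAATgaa
Prr11: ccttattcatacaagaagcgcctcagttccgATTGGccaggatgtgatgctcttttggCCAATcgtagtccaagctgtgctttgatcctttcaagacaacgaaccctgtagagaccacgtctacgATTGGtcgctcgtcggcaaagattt
Aurka: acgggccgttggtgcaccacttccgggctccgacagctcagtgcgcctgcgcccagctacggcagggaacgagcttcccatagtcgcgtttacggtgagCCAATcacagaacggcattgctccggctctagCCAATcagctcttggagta
TTTGAA stands at -18 in Cdc20 and just after the start, at 31, 4 and 33, in Plk1, Prr11 and Aurka, where position 1 is the start of transcription. Over windows from 250 bases before to 50 after the start, both strands, 22 of the 33 list genes with a window held TTTGAA (66.7%), against 20.2% of 27025 genes. CCAAT was held by 26 of the 33 (78.8%), against 41.1% of all genes. No TTTGAA match overlaps a CCAAT match in the stretches shown. A match is a description of the letters and not a measured site.

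**Figure D4:**
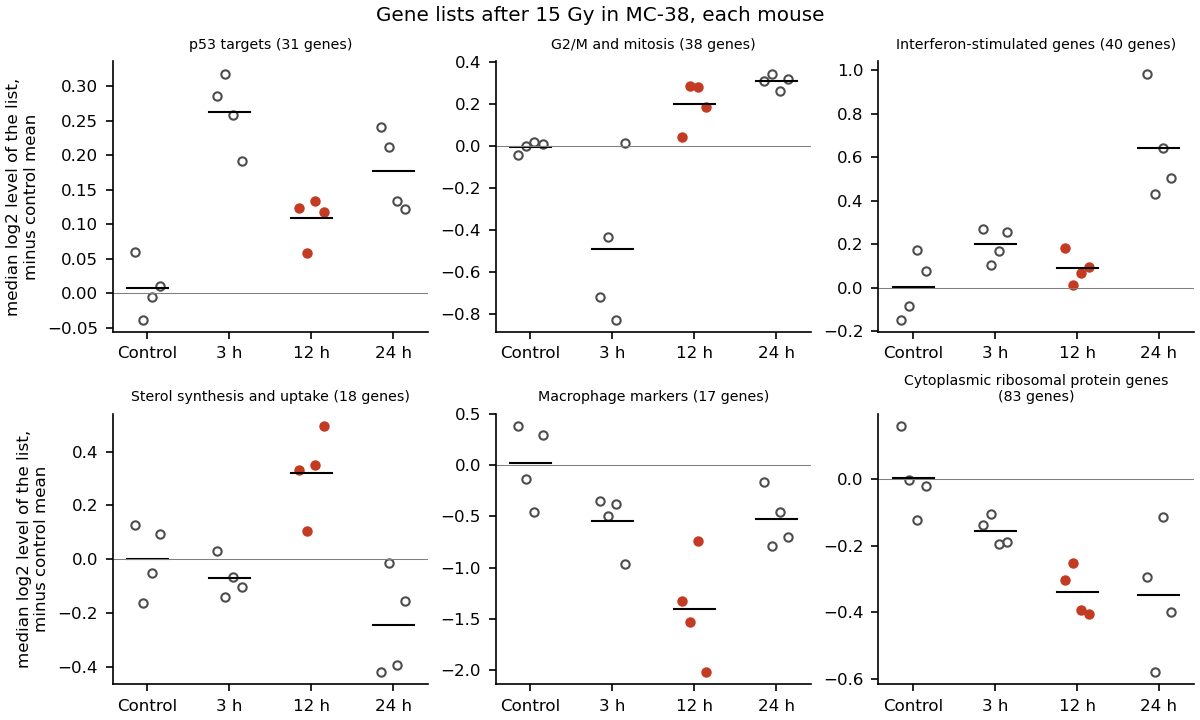
Median log2 level of the genes of 6 lists (y axis, scaled values, minus the mean of the 4 Control mice) in each MC-38 mouse, by group (x axis); bars are group means and filled circles are the 12 h mice. Macrophage markers are lowest and sterol genes highest at 12 h, G2/M genes are low in 3 of 4 mice at 3 h, and interferon-stimulated genes are highest at 24 h.

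The direction of DNA replication genes at 12 h depended on the scale. Of 34, 3 rose and 2 fell on the scaled values, against 6.34% and 9.84% of all genes, with a median of 0.02. In TPM as deposited 14 rose and none fell, against 28.5% and 2.59% of all genes. The deposited median was 0.37, against 0.33 for all genes, and all 34 values were above 0. The polymerase subunit Pole rose by 0.48 and the origin recognition factor Orc1 by 0.33, and without Control mouse 1 these 2 were the only members to pass. Thymidine kinase Tk1 and the helicase factor Gins1 fell by 0.33 and 0.32 on the scaled values, while both were near 0 in TPM as deposited, at 0.02 and 0.03. Among G1 regulators, the cyclin-dependent kinase Cdk6 rose by 0.44 and Cdk4 fell by 0.28 on the scaled values, with Cdk4 at 0.06 as deposited; of the pair Cdk6 also passed without Control mouse 1. Of 35 clustered histone genes only Hist1h4i fell (-0.62).

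Sterol synthesis genes leaned upward together at 12 h. All 18 genes of the list had a positive scaled change, with a median log2 fold change of 0.34, that is 1.26-fold. On the scaled values 5 rose, against 6.34% of all genes, and in TPM as deposited 17 rose, against 28.5%. Hmgcs1, which makes HMG-CoA, measured 45.0, 54.5, 69.3 and 72.2 TPM in Control mice and 102, 98.5, 112 and 137 TPM at 12 h (scaled 0.56 ± 0.14, adjusted p = 0.0167). For Hmgcs1 all 4 irradiated mice lay above all 4 Control mice. On the scaled values this held for 2 of the 18 genes, against 13.8% of all genes. The median level of the list overlapped between the groups, at 0.106 in RT 12 h mouse 2 and 0.126 in Control mouse 1 (log2, minus the Control mean). Sqle, the squalene epoxidase, Cyp51, which demethylates lanosterol, and Mvk, mevalonate kinase, each rose by 0.38, and Srebf2, the transcription factor that controls the pathway, rose by 0.30. Mvd was as high as Hmgcs1 and just missed (0.56 ± 0.19, adjusted p = 0.0518). Leaving out 1 mouse gave 1 to 8 rises, with 1 without RT 12 h mouse 4 and 3 without Control mouse 1. Without Control mice 1 and 4 none passed and the median was 0.42.

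The direction had turned by 24 h. Against RT 12 h, RT 24 h had 572 genes higher (3.64%) and 304 lower (1.94%) on the scaled values, and 218 and 46 in TPM as deposited. On the scaled values 12 of the 18 sterol genes were lower and none was higher, with a median log2 difference of -0.58. Leaving out 1 mouse gave 7 to 15 lower, with 7 without RT 12 h mouse 4. Hmgcs1 was at 44.6, 70.4, 43.3 and 65.2 TPM at 24 h (24 h minus 12 h -0.94, adjusted p = 0.0019), which overlaps the Control range. The 150 bases before the Hmgcs1 start (chr13:119690201-119690350, plus strand, RefSeq, GRCm38.p6) hold the sterol element TCACNCCAC, where N is any base, and an inverted CCAAT, both in capitals:
Hmgcs1: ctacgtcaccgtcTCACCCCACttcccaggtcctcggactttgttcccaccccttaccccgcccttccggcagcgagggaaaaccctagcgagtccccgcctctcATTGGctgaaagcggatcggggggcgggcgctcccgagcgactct
Of the 12 list genes with a promoter window all held CCAAT, against 41.1% of all genes. TCACNCCAC was found in 1 (8.33%), against 1.44% of all genes. That 1 gene is Hmgcs1 itself, so the share rests on the promoter shown.

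Few interferon-stimulated genes were called at 12 h on the scaled values. Of 40, 4 rose and 2 fell, against 6.34% and 9.84% of all genes, with a median log2 fold change of 0.10. In TPM as deposited 13 rose and 2 fell, against 28.5% and 2.59% of all genes. Oas2 and Oas3, sensors of double-stranded RNA, rose by 0.64 and 0.49. Ifi27l2a and the T cell chemokine Cxcl9 fell by 1.02 and 0.97, and these falls were also called in TPM as deposited. Ifi27l2a went from 196, 142, 164 and 239 TPM to 114, 116, 153 and 83.3 TPM. Bst2, the tetherin gene and the most abundant member, did not pass (-0.24, adjusted p = 0.112). None of the 40 passed in either direction without Control mouse 1, where the median was 0.03. MHC class I genes were lower on the scaled values for 3 of 15: H2-T23, a nonclassical chain (-1.02 ± 0.18, adjusted p = 0.00437), B2m (-0.28) and H2-K1 (-0.24). B2m and H2-K1 were at 0.07 and 0.11 in TPM as deposited, so that of these 3 only H2-T23 was lower on both scales, and it alone passed without Control mouse 1. Of the 15 MHC class I genes 4 rose in TPM as deposited, against 28.5% of all genes.

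By 24 h most of the interferon list had risen. Against 12 h, 29 of the 40 were higher and none was lower, against 3.64% and 1.94% of all genes. The median log2 difference was 0.61, and leaving out 1 mouse gave 17 to 29 higher. Mx1, an antiviral GTPase, measured 28.9, 26.8, 29.3 and 24.9 TPM at 12 h and 84.6, 49.4, 74.9 and 58.5 TPM at 24 h (difference 1.32, adjusted p = 0.0026). Ifit2, Ifit3 and Irf7 differed by 1.29, 1.24 and 1.15. Between 3 h and 12 h no gene of the list passed (0 of 40 by limma, 5 lower at an unadjusted p under 0.05). The promoters of 2 members are given for their pair of interferon response elements, GAAANNGAA, where N is any base (150 bases before the start, RefSeq, GRCm38.p6, chr5:120777660-120777809 for Oas3 and chr8:71537473-71537622 for Bst2, both minus strand).
Oas3: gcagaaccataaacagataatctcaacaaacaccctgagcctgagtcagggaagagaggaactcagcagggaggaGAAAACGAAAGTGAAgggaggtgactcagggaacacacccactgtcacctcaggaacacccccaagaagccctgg
Bst2: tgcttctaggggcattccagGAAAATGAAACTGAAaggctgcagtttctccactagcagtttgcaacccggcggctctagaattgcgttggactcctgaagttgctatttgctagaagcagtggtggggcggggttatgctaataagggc
Capitals mark the element; in both genes 2 matches overlap. It was found in 18 of 29 list genes with a window (62.1%), against 9.76% of all genes.

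The genes of the DNA-sensing pathways gave a mixed picture that depended on the scaling. Mb21d1, which encodes cGAS, measured 9.73, 15.7, 18.9 and 15.0 TPM in Control mice and 24.0, 22.5, 21.6 and 23.4 TPM at 12 h, with no overlap. It rose on both scales, by 0.65 as deposited (adjusted p = 0.0138) and by 0.31 scaled (adjusted p = 0.0467), but passed on the scaled values in only 1 of the 8 fits that left out a mouse (adjusted p 0.0319 to 0.147). Tmem173 (STING) and Tbk1 rose only as deposited, by 0.35 and 0.52, with scaled values of 0.01 and 0.18. Irf3 passed on neither scale (0.50 as deposited, adjusted p = 0.0562). Ifnb1, interferon beta, was low: 0.663, 0.616, 1.02 and 0.443 TPM in Control mice and 1.83, 1.46, 1.41 and 1.83 TPM at 12 h. It rose as deposited (0.86, adjusted p = 0.0232) and not scaled (0.64, adjusted p = 0.114), and was 1.16 higher again at 24 h (adjusted p = 0.022).

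The inflammasome genes moved apart. Aim2 passed on neither scale (0.48 as deposited, adjusted p = 0.123, and 0.14 scaled). Casp1, the inflammasome protease, rose only as deposited (0.56, adjusted p = 0.0221). Pycard, the adaptor ASC that joins them, fell from 11.7, 14.6, 9.72 and 20.1 TPM to 6.42, 3.49, 8.33 and 4.06 TPM (scaled -1.61 ± 0.29, adjusted p = 0.00474), on both scales. Il1b, interleukin-1 beta, measured 22.5, 27.8, 15.9 and 25.4 TPM in Control mice and 14.8, 13.7, 18.8 and 16.5 TPM at 12 h. It fell on the scaled values (-0.83 ± 0.21, adjusted p = 0.0191; 0.00255 to 0.0677 leaving out 1 mouse) and missed as deposited (-0.49, adjusted p = 0.0521). Il1b was the gene with the largest fall from 3 h to 12 h by the rule (-1.12, adjusted p = 0.031) and was 1.02 higher at 24 h than at 12 h (adjusted p = 0.013). Its call against 3 h was lost in 11 of 17 alternative fits (adjusted p 0.00909 to 0.121). Il18, a related cytokine, fell by 0.81 scaled (adjusted p = 0.0393; 0.0205 to 0.119 leaving out 1 mouse).

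The 6 genes of the CXCR2 axis, which the study followed for neutrophil recruitment, gave no call on the scaled values (0 of 6 by limma, 1 at an unadjusted p under 0.05). The ligand Cxcl1 measured 8.57, 26.9, 22.6 and 19.1 TPM in Control mice and 28.5, 30.1, 24.1 and 37.4 TPM at 12 h (0.38 ± 0.22, adjusted p = 0.233). Cxcl5 was low, 0.266 to 1.21 TPM in Control mice and 1.07 to 2.63 TPM at 12 h, and rose only as deposited (1.01, adjusted p = 0.0263). Of 21 NF-kB and cytokine genes 1 rose and 1 fell on the scaled values, against 6.34% and 9.84% of all genes. The rise was that of Nfkb2, an NF-kB subunit precursor (0.31), and the fall that of Il1b. As deposited 11 rose and none fell, against 28.5% and 2.59% of all genes. Without Control mouse 1 the scaled values gave 1 rise and no fall. At 24 h 9 of the 21 were higher than at 12 h, against 3.64% of all genes.

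In the stress and metabolic lists few members were called on the scaled values, where 6.34% of all genes rose and 9.84% fell. Hspa1b, an inducible HSP70 chaperone, measured 4.45, 3.77, 6.29 and 6.28 TPM in Control mice and 14.7, 28.9, 10.9 and 10.8 TPM at 12 h (1.15 ± 0.26, adjusted p = 0.0115), with RT 12 h mouse 2 the highest. Hspa1a, its near-identical neighbor, rose by 0.98, and Hspa4l by 0.42, which makes 3 of 15 chaperones, and 3 rose without Control mouse 1 too. On the deposited TPM 13 of the 15 rose, against 28.5% of all genes. At 24 h Hspa1b was 1.24 lower again (adjusted p = 0.013). Of 18 circadian clock genes Per3 and Bhlhe40 rose, by 0.91 and 0.74, and Bhlhe40 alone passed without Control mouse 1. In the hypoxia and glycolysis list, where 1 of 22 rose and 2 fell, Hk2, hexokinase 2, rose by 0.63, while Ldha fell by 0.31 scaled and was at 0.04 as deposited; Hk2 alone passed without Control mouse 1. The Nrf2 target Gsta4 rose by 0.73 and Txn1 fell by 0.39 scaled, with Txn1 at -0.04 as deposited; without Control mouse 1 Txn1 passed and Gsta4 did not. As deposited 6 of 18 clock, 6 of 22 hypoxia and 6 of 16 Nrf2 genes rose and none fell, against 28.5% and 2.59% of all genes. Of 19 immediate early genes only Klf2 fell (-0.81), and of 14 TGF-beta and YAP targets only Tgfbi (-0.91), which did not pass without Control mouse 1. No gene of the integrated stress response passed (0 of 17 by limma, 1 higher and 1 lower at an unadjusted p under 0.05), and none of 5 nuclear-retained long RNAs did (0 by limma and 0 at an unadjusted p under 0.05).

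Genes for ribosomes and respiration were lower than the median gene. Of 83 cytoplasmic ribosomal protein genes 50 fell and none rose on the scaled values, against 9.84% and 6.34% of all genes. The median log2 fold change was -0.34. In TPM as deposited 4 fell and none rose, against 2.59% and 28.5% of all genes, and the median was 0.02. Rpl13a measured 1590, 1874, 1922 and 1704 TPM in Control mice and 1187, 1647, 1257 and 1286 TPM at 12 h (-0.76 ± 0.13 scaled, adjusted p = 0.00411). Rps27 fell by 0.73 and the most abundant member, Rplp1, by 0.49. Of 73 nuclear-encoded subunits of oxidative phosphorylation 39 fell and none rose on the scaled values, with a median of -0.34. As deposited 2 rose and none fell, against 28.5% and 2.59% of all genes. Atp5l and Ndufa4 fell by 0.60 and 0.59. These counts dropped to 23 and 17 without Control mouse 1 and to 1 and 0 without Control mice 1 and 4, where the medians were -0.28 and -0.19. Among 9 mitochondrially encoded genes, of which 2 fell without Control mouse 1, mt-Nd3 (-1.06), mt-Co3 (-0.59) and mt-Co2 (-0.47) fell, and mt-Nd4l did not pass (-0.77 ± 0.37, adjusted p = 0.155). The reads of mt-Nd4 cannot be separated from those of mt-Nd4l, which overlaps it: mt-Nd4 is listed at 0 TPM.

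The 12 h state also differed from the 24 h state in the myeloid genes. Of the 17 macrophage markers 4 were higher at 24 h, against 3.64% of all genes: Ly6c2 (2.24, adjusted p = 0.001), Fcgr1 (1.53), Ccr2 (0.97) and Cd68 (0.76). Leaving out 1 mouse gave 2 to 8 higher, with 2 without RT 12 h mouse 1. Ly6c2 went from 65.9, 45.2, 84.4 and 56.3 TPM at 12 h to 359, 190, 327 and 257 TPM at 24 h, with a Control range of 101 to 189 TPM. Cx3cr1 was not among them: it measured 1.397 to 1.519 TPM at 24 h, against 0.826 to 4.07 TPM at 12 h. The summed macrophage list was at 903 to 1500 scaled TPM at 3 h and 1037 to 1616 at 24 h, against 440 to 1040 at 12 h, but no single macrophage marker passed between 3 h and 12 h (0 of 17 by limma, 10 lower at an unadjusted p under 0.05). Besides Il1b and Ung, the genes that were most reduced from 3 h to 12 h by the rule were Ms4a14 (-1.002) and Rgs2, a regulator of G protein signalling (-0.93). Their calls were lost in 11 of 16 and 11 of 17 alternative fits. By the same rule Gm15056, listed at 0 TPM in all 12 h mice, and the near-identical Gm21748 and Gm21860 were most increased from 12 h to 24 h, with I830127L07Rik. Trbj2-5, Ankrd37, Gm26779 and Hspa1b were most reduced. All of these time contrasts share the RT 12 h libraries with the comparison to Control.

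The change at 12 h was then set against the change at 12 h in RM-9, a mouse prostate cancer grown and irradiated in the same way (4 Control and 4 RT 12 h mice). The difference between the 2 changes passed for 235 genes that changed more upward in MC-38 (1.53% of 15358 tested) and 201 that changed more downward (1.31%), on values scaled over all 31 libraries. In TPM as deposited these counts were 6903 and 72, and with the mitochondrially encoded genes taken out of the total 2198 and 118, so the direction of a small difference depended on the scaling. Without MC-38 Control mouse 1 they were 95 and 53. The genes with the largest rises had been chosen by their change in these same MC-38 libraries, which favors a difference in this test. Acsm3 changed by 2.40 in MC-38 in this fit and was listed at 0 TPM in all 8 RM-9 mice (adjusted p of the difference 0.00471). Esp8, Myl7, both Trav15 copies and AC099934.2 were likewise at 0 TPM in those RM-9 mice, so for these genes the comparison says only that they were not seen in RM-9 tumors. Bbs2 changed by 1.75 in MC-38 and by -0.06 in RM-9 (difference 1.82, adjusted p = 0.0233). Fam132a, Tmem40 and Rapgef4 also differed, by 1.43, 1.47 and 1.35. For Fn1, Scn8a and Gm21992, also expressed in RM-9, the difference did not pass (1.18, 1.59 and 2.13, adjusted p = 0.064, 0.202 and 0.234).

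Few of the falling myeloid genes passed the test of a difference. Clec5a fell by 1.68 in MC-38 and changed by -0.17 in RM-9 (difference -1.51, adjusted p = 0.0249). Of the 17 macrophage markers only Ms4a7 passed (-1.404, adjusted p = 0.039), with a median change of -0.49 in RM-9. The median difference was -0.84, and 11 of the 17 were lower and none higher at an unadjusted p under 0.05, so a missed threshold for the other 16 does not show that the models acted alike. The 4 genes that changed most downward in MC-38 relative to RM-9 were Tnni1 (-2.24), a slow muscle troponin that was highest in Control mice 1 and 4, Crip1 (-1.87), Mrpl53 (-1.82), which overlaps Ccdc142, and the formyl peptide receptor Fpr1 (-1.69). The call was lost in 16 of 24 alternatives for Tnni1 (adjusted p from 0.0152 to 0.127), in 9 of 25 for Mrpl53 (0.011 to 0.0862), in 2 of 25 for Crip1 and in 2 of 24 for Fpr1. Replication genes differed upward for 8 of 34, among them Pole (0.89) and Orc1 (0.50). Sterol genes differed upward for 5 of 18, among them Hmgcs1 (0.97), Mvd (0.96) and Srebf2 (0.52). Trp53 differed by 0.39 (adjusted p = 0.0166), at 0.12 in MC-38 and -0.27 in RM-9. Ung fell in both models, at -1.06 in MC-38 and -1.02 in RM-9 (adjusted p = 0.000834 in RM-9). The difference for Ung was -0.03 (adjusted p = 0.946). No interferon-stimulated gene passed (0 of 40 by limma, 26 higher at an unadjusted p under 0.05), with a median difference of 0.82.

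**Figure D5:**
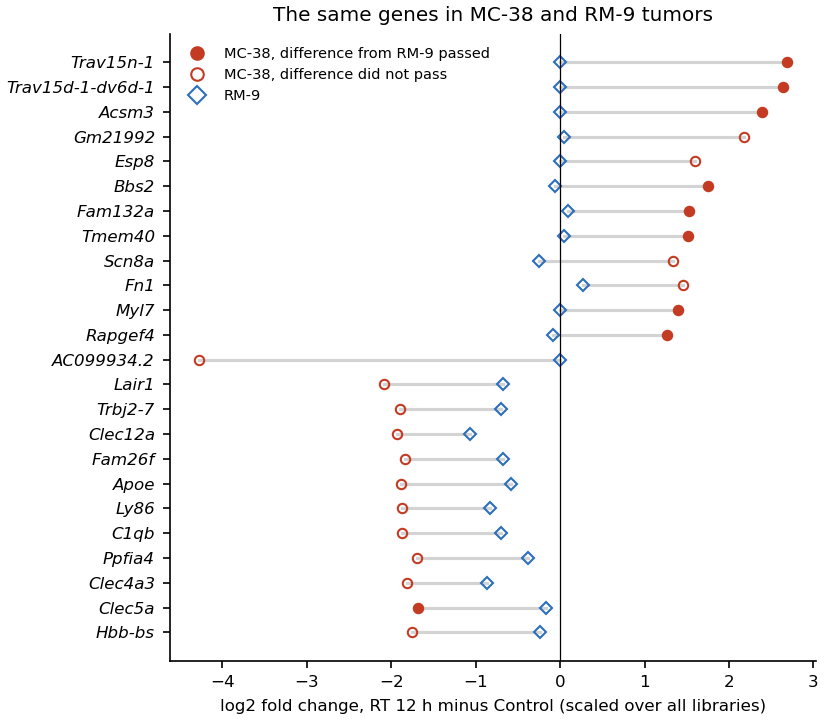
Log2 fold change at 12 h (x axis, values scaled over all 31 libraries) of the genes with the largest rises and falls in MC-38 (y axis); circles are MC-38, filled where the difference between the models passed, and diamonds are RM-9. The RM-9 diamonds lie near 0 for the rising genes, and between 0 and the MC-38 value for the falling ones other than AC099934.2.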

How the data were processed

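Total RNA of whole tumors, 1 mouse per library, was made into stranded mRNA libraries and sequenced as single 75-base reads, per the labels and the study's methods. The authors deposited 1 gene abundance table per library with coverage, FPKM and TPM. The submitters' processing notes name bcl2fastq 2.17 and the build GRCm39, whereas the deposited coordinates match GENCODE M21 on GRCm38 (45223 of 46072 gene IDs shared, 91.1% with the same start or end), so coordinates are given as GRCm38; the aligner and the counter's strand setting are not given in the sources used here. TPM were summed per gene ID. TPM keep no counts, so depth was estimated from the deposited coverage and FPKM signal.

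Genes with a mean of at least 0.5 TPM over the 16 MC-38 libraries entered limma (version 3.58.1, R 4.3.3, eBayes with trend) as log2(TPM + 0.5) in 1 fit over the 4 MC-38 groups, with Benjamini-Hochberg adjustment over all genes tested and a threshold of 0.05. The pseudocount understates the change of low genes. Scaled TPM are TPM divided by the library's median ratio to the geometric mean over genes above 0 in all 16 libraries (17184 genes). The difference between tumor models was the interaction in a fit over all 31 libraries. The median gene was tested by an exact permutation test. The other steps ran in Python 3.11.15, with pandas 2.3.3 and numpy 2.4.6 for tables, scipy 1.17.1 for permutation and matplotlib 3.10.9 for plots. In simulated data with 200 of 15698 genes changed, the deposited-scale fit recovered 83.0% of those changed by 1 on the log2 scale and 96.0% of those changed by 2, and called 0.116% of the unchanged genes. The changed genes were drawn from those above a set mean level. The simulated noise was independent between genes, with no shift of the median gene and no mouse standing apart. These rates therefore do not carry over to the counts of genes called here.

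The members, gene lists, tests and naming rule were chosen with earlier results of these data known. Genes named were the 12 largest rises and falls among genes called on both scales with a mean of at least 1 TPM in the higher group and no overlap between groups, up to 4 called members and the most abundant member of each list (any member of lists under 20), 4 per direction for the other contrasts, and mt-Nd4l, Trp53 and the DNA-sensing and inflammasome genes; Cdkn1a, Rrm2b, Zmat3, Blm, Trp53bp1, Mdc1, Brca2, Top2a, Ccnb1, Nfkb2, Mx1, Ifit2, Ifit3 and Irf7 were named after their values were seen. Alternatives were other pseudocounts, filters and scalings, no trend, fewer groups in the fit, a replicate block, and leaving out each mouse; leaving out Control mice 1 and 4 and the sterol motif were added after seeing the data. Mouse numbers recur in every group, but nothing says that they pair mice. The labels name separate mice, so p-values cover the spread between mice.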

Additional observations from a re-analysis of the deposited data

Results flagged for a closer look

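The 4 mice of each group were screened for a single value far from the other 3 in 184 groups of values, of which chance alone gives about 1 in 20. In the Control group, Ppfia4 measured 3.44 TPM in mouse 1 against 3.198 to 3.228 in the others, p53 targets summed to 777 scaled TPM in mouse 1 against 614.7 to 635.2, neutrophil markers to 50.2 in mouse 3 against 69.53 to 70.7, and skeletal muscle markers to 22340 in mouse 1 against 27.24 to 2670. At 12 h, AC099934.2 measured 15.75 TPM in mouse 2 and 0 in the others, Ppfia4 2.294 TPM in mouse 3 against 0.2844 to 0.6251, and Mrpl53 6.0 TPM in mouse 3 against 9.795 to 9.979. Summed scaled TPM at 12 h stood apart for p53 targets in mouse 3 (675.1 against 639.5 to 644.9), nuclear-retained long RNAs in mouse 2 (616.9 against 469 to 486), endothelial markers in mouse 4 (93.32 against 107.3 to 108.1) and skeletal muscle markers in mouse 2 (525.2 against 10.01 to 42.59).

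The change at 12 h differed between MC-38 and RM-9 by the interaction test in limma for the named genes and members of short lists that follow, given as the MC-38 change minus the RM-9 change on the log2 scale. The difference was 2.681 for Trav15n-1 and 2.636 for its copy Trav15d-1-dv6d-1 (adjusted p = 0.0205 for each), 2.396 for Acsm3 (adjusted p = 0.00471) and 1.391 for Myl7 (adjusted p = 0.0363), all 4 listed at 0 TPM in the RM-9 Control and RT 12 h mice. It was 1.815 for Bbs2 (adjusted p = 0.0233), 1.426 for Fam132a (adjusted p = 0.0442), 1.467 for Tmem40 (adjusted p = 0.0317) and 1.351 for Rapgef4 (adjusted p = 0.0467). In the downward direction it was -1.51 for Clec5a (adjusted p = 0.0249), -2.24 for Tnni1 (adjusted p = 0.0468), -1.869 for Crip1 (adjusted p = 0.0197), -1.821 for Mrpl53 (adjusted p = 0.0317) and -1.687 for Fpr1 (adjusted p = 0.0225). Trp53 differed by 0.389 (adjusted p = 0.0166). The replication and repair genes were at 0.888 for Pole, 0.496 for Orc1 and 0.62 for Parp1 (adjusted p from 0.0103 to 0.0442), and the G1 regulators at 0.695 for Cdk6 and -0.495 for Cdkn2d (adjusted p = 0.0358 and 0.0254). Sterol genes differed by 0.975 for Hmgcs1, 0.958 for Mvd, 0.897 for Idi1, 0.825 for Fdps and 0.519 for Srebf2 (adjusted p from 0.0264 to 0.0415). Ribosomal protein genes differed by -1.189 for Rps27, -1.031 for Rpl13a and -1.001 for Rpl22l1 (adjusted p from 0.00506 to 0.0218). Mitochondrial genes differed by -1.424 for mt-Nd3, -1.113 for mt-Cytb, -0.877 for mt-Co3, -0.727 for mt-Co1 and -0.638 for Atp5l (adjusted p from 0.0264 to 0.0487), and the macrophage marker Ms4a7 by -1.404 (adjusted p = 0.0391).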

How the results depend on the processing

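The counts of genes called at 12 h depended on the Control mice and on the scaling, and the cause was not tested. For TPM as deposited (4469 higher and 406 lower) the counts were 995 and 1544 on scaled values, 669 and 123 with no other group in the fit, and 22 and 4 without Control mice 1 and 4; without a filter 2642 were higher, at a mean of at least 5 TPM 260 were lower, and without mitochondrially encoded genes 675 were lower. Leaving out 1 mouse gave 1266 to 6755 higher and 167 to 532 lower. On scaled values (995 and 1544) they were 15 and 19 without Control mice 1 and 4, and 332 to 1301 and 674 to 1868 leaving out 1 mouse. For 12 h against 3 h (79 and 25) they were 30 and 10 without a filter, 46 and 13 without the trend, 7 and 2 with only the groups compared, 0 and 0 as deposited, with 11 lower without mitochondrially encoded genes, and 0 to 135 and 0 to 40 leaving out 1 mouse. For 24 h against 12 h (572 and 304) they were 297 and 73 with only the groups compared and 218 and 46 as deposited, with 193 lower without mitochondrially encoded genes, and 279 to 693 and 97 to 489 leaving out 1 mouse. For the difference between models (235 and 201) they were 6903 and 72 as deposited and 2198 and 118 without mitochondrially encoded genes, with 117 lower without a filter and 100 lower with only the groups compared, and 95 to 452 and 53 to 521 leaving out 1 mouse. The difference of the median gene was 0.245 to 0.442 leaving out 1 mouse; where an RT 12 h mouse was left out its exact permutation p was 0.0571. Positive as deposited and negative on scaled values were Bax (-0.29), Tk1 (-0.33), Gins1 (-0.32), Cdk4 (-0.28), B2m (-0.28), H2-K1 (-0.24), Hsp90ab1 (-0.005), Ldha (-0.31) and Atp5b (-0.30). Other pseudocounts moved none of these counts by over 1.5 times.

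With mouse number as a replicate block, 5259 genes were higher and 417 lower as deposited, 751 and 1287 on scaled values, 36 and 7 against 3 h, 476 and 204 for 24 h against 12 h, and 190 and 157 for the difference between models; same-numbered mice of the Control and RT 12 h groups had correlations of deviations of -0.351 to -0.0585, so the numbers were not taken to pair the mice.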
